A study of Bos taurus with 9 samples.

Results

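The IFIT genes encode interferon-induced proteins with tetratricopeptide repeats. They were taken from the count table by symbol: 3 of the 4 symbols IFIT1, IFIT2, IFIT3 and IFIT5 named a row, out of 30641 genes. Those 3 were IFIT2, IFIT3 and IFIT5, and all 3 passed the filter on low counts. No row carried the symbol IFIT1, which is therefore not analysed here.

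The libraries came from RNA of cultured bovine (Bos taurus) cells, labelled as endometrial epithelial, with 3 libraries in each of 3 groups. The DPPA3 mRNA group was transfected 24 hours after seeding with in vitro transcribed DPPA3 mRNA (500 ng) in the reagent jetMESSENGER. The reagent alone group was exposed to jetMESSENGER without RNA at that time, and the untreated control group received neither. No control carried an unrelated mRNA, so an effect of the DPPA3 sequence cannot be told apart from that of any in vitro made mRNA. The labels used here do not give the time between transfection and RNA extraction, the source animal of the cells, or whether replicates were separate cultures. The p-values therefore measure only the spread between these libraries, which may be technical.

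IFIT genes are among the genes switched on by type I interferon, through transcription factors that include STAT2 and IRF9. Their proteins bind foreign RNA. Human IFIT1 binds RNA whose cap lacks ribose methylation and blocks its translation, human IFIT3 binds and stabilises human IFIT1, human IFIT2 binds AU-rich RNA, and human IFIT5 binds RNA that begins with a triphosphate. In the ruminant uterus the conceptus secretes interferon tau, a type I interferon that induces such genes in the endometrium around the time of pregnancy recognition.

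The libraries held 11070923 to 13258036 counts after transfection, 3890134 to 12092771 after reagent alone and 7258348 to 10130619 without treatment. DPPA3 took 0.953%, 1.93% and 1.84% of counts in transfected replicates 1, 2 and 3, and had 0 to 2 counts in each other library, matching the labels. The keratins KRT8, KRT18, KRT19 and KRT7 were abundant, but the epithelial adhesion gene EPCAM stood at 0 to 0.78 CPM (normalised read count per 1000000 counts) in every library. The 8 stromal markers summed to 29385 to 34580 CPM after transfection, 27828 to 35916 CPM after reagent alone and 30320 to 46286 CPM without treatment, above the 8780 to 9778, 8575 to 8930 and 8916 to 11037 CPM of the 8 epithelial markers. The label was met by the keratins and by CDH1, at 37.6 to 58.6 CPM over the 9 libraries, but not by EPCAM or the tight junction gene CLDN4, which stood at 0 to 1.93 CPM. The mucin gene MUC1 was also low, at 0.54 to 3.86 CPM over the 9 libraries. Most of the stromal sum came from collagens: COL1A2, COL1A1 and COL3A1 averaged 13655, 9792 and 7292 CPM after transfection. VIM, DCN and LUM averaged 1556, 206 and 41.9 CPM there. The stromal marker PDGFRB averaged only 8.84 CPM after transfection, 13.26 CPM after reagent alone and 12.99 CPM without treatment. THY1, also a stromal marker, averaged 0.48, 0.70 and 1.01 CPM in these groups. The 8 immune markers summed to 6.17 to 10.1 CPM after transfection, 7.21 to 10.1 CPM after reagent alone and 6.92 to 9.95 CPM without treatment, and the pan-leukocyte gene PTPRC had 0 counts in all 9 libraries. The 4 endothelial markers summed to 6.41 to 10.8, 9.99 to 12.2 and 7.68 to 9.49 CPM in these groups. In bulk RNA, a higher level in every cell cannot be told apart from a larger share of cells with the transcript.

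IFIT2, which in humans binds AU-rich RNA, had 12.2, 162 and 12.5 CPM in transfected replicates 1, 2 and 3. It had 1.74, 1.44 and 9.99 CPM in reagent alone replicates 1, 2 and 3, and 4.34, 2.59 and 6.25 CPM in untreated control replicates 1, 2 and 3. All transfected libraries lay above all libraries of the other groups, but replicates 1 and 3 stood only a little above reagent alone replicate 3. The group means were 62.4 ± 86.7 CPM after transfection, 4.39 ± 4.85 CPM after reagent alone and 4.40 ± 1.83 CPM without treatment (SD, n = 3). The SD of the transfected group exceeded its distance to the other groups, and the means with reagent alone and in untreated cells differed by less than either SD. The lowest values rest on few reads: the 7 counts in reagent alone replicate 1 have an exact Poisson 95% interval of 0.70 to 3.59 CPM, which covers counting error only.

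IFIT3, the partner of IFIT1 in human cells, had 5.87, 39.2 and 4.92 CPM in transfected replicates 1, 2 and 3. The values were 2.24, 3.23 and 5.11 CPM in reagent alone replicates 1, 2 and 3, and 2.25, 3.46 and 3.81 CPM in untreated control replicates 1, 2 and 3. The transfected libraries lay above all untreated controls but overlapped with reagent alone, since DPPA3 mRNA replicate 3 fell below reagent alone replicate 3. Means were 16.7 ± 19.5 CPM after transfection, 3.53 ± 1.46 CPM after reagent alone and 3.17 ± 0.82 CPM without treatment (SD, n = 3). Again the transfected SD was wider than its distance to the next group, and the other means differed by less than their SDs. The 9 counts behind reagent alone replicate 1 allow 1.02 to 4.25 CPM by the exact Poisson interval.

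IFIT5, whose human protein binds triphosphate RNA, had 39.2, 174 and 52.2 CPM in transfected replicates 1, 2 and 3. Reagent alone replicates 1, 2 and 3 had 39.0, 35.6 and 45.2 CPM, and untreated control replicates 1, 2 and 3 had 15.9, 46.3 and 27.3 CPM. Here DPPA3 mRNA replicate 1 was level with reagent alone replicate 1 and below untreated control replicate 2, so the transfected group overlapped with both others. Means were 88.5 ± 74.4 CPM after transfection, 40.0 ± 4.88 CPM after reagent alone and 29.8 ± 15.3 CPM without treatment (SD, n = 3), and neighbours in this order differed by less than the wider of their SDs.

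**Figure D1:**
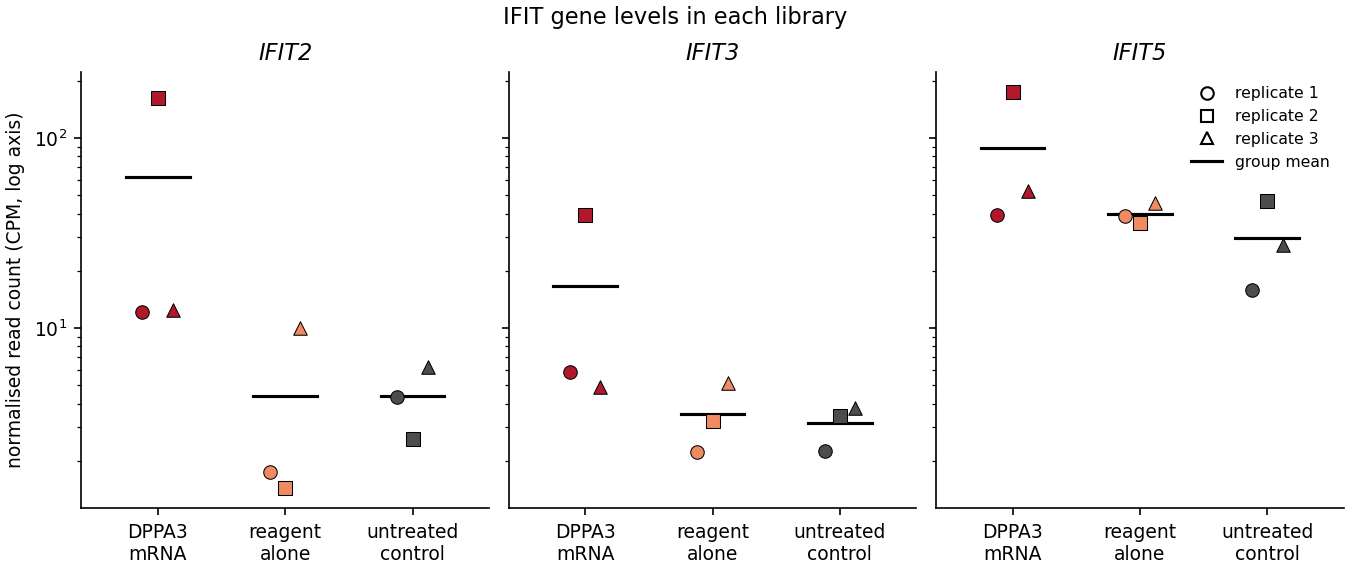
Normalised read count (CPM, log axis) of IFIT2, IFIT3 and IFIT5 in each of 9 libraries, by group; symbols mark the replicate number and the black line is the group mean (n = 3). DPPA3 mRNA replicate 2 stands highest for every gene (162, 39.2 and 174 CPM), while replicates 1 and 3 lie near the upper end of the other groups.

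DPPA3 mRNA replicate 2 was the highest library for all 3 genes. It exceeded replicate 3 by 13.04-fold for IFIT2, 7.98-fold for IFIT3 and 3.33-fold for IFIT5. The level of DPPA3 itself was only 1.07-fold higher in replicate 2 than in replicate 3. Replicate 3 held 1.90-fold more DPPA3 than replicate 1, yet its IFIT2 was 1.02-fold, its IFIT3 0.84-fold and its IFIT5 1.33-fold that of replicate 1. IFIT5 thus had the same order of transfected libraries as DPPA3, with steps of other sizes. For IFIT2 replicates 1 and 3 could not be ordered, since their exact Poisson intervals were 10.4 to 14.2 and 10.5 to 14.6 CPM. IFIT3 was lower in replicate 3 than in replicate 1, but these intervals also overlapped (3.73 to 6.36 and 4.64 to 7.33 CPM). With 3 transfected libraries, a link between the level of DPPA3 and that of an IFIT gene was not tested. Among reagent alone libraries replicate 3 was the highest for each of the 3 genes.

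Reagent alone is the reference for the mRNA itself, since cells of both groups met the reagent. On average IFIT2 was 13.04-fold higher (log2 fold change 3.70, SE 0.97), IFIT3 4.51-fold higher (2.17, SE 0.67) and IFIT5 2.21-fold higher (1.14, SE 0.47). By edgeR's quasi-likelihood test 0 of the 3 were called, since the Benjamini-Hochberg adjusted p, taken over the whole table, was 0.9998 for each and the threshold was 0.05. Over the 14874 genes tested, 0.00672% were called higher, which was DPPA3 itself, and 0% lower. Unadjusted p-values from the edgeR fit were 0.0020 for IFIT2, 0.0065 for IFIT3 and 0.031 for IFIT5, at ranks 26, 49 and 149 of all genes, where 248 genes had one under 0.05. The 95% intervals of the log2 fold changes ran from 1.62 to 5.79 for IFIT2, from 0.72 to 3.63 for IFIT3 and from 0.12 to 2.17 for IFIT5. With limma voom 0 of the 3 were called and 1 had an unadjusted p under 0.05. DESeq2 also called 0: it gave IFIT5 an unadjusted p of 0.074, and gave no p for IFIT2 and IFIT3, where the Cook's distance of DPPA3 mRNA replicate 2 (15.5 and 10.1) passed its limit of 9.78.

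A single library decided the size of these differences. Without DPPA3 mRNA replicate 2 the log2 fold change was 1.41 for IFIT2, 0.57 for IFIT3 and 0.19 for IFIT5. Without reagent alone replicate 3, IFIT2 reached 5.33. The call depended on the filter on low counts: with no filter, 22229 genes were tested and all 3 IFIT genes were called (adjusted p 1.1e-12 for IFIT2, 1.8e-04 for IFIT3 and 0.0039 for IFIT5). In that fit the total degrees of freedom used for each IFIT gene in the test were 141 against 13.3 with the filter, and the SE of IFIT2 was 0.41 against 0.97, while the log2 fold changes were 3.70, 2.17 and 1.15.

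The second comparison, DPPA3 mRNA with untreated control, measured mRNA and reagent together and uses the same 3 transfected libraries. IFIT2 was on average 14.1-fold higher (log2 fold change 3.81, SE 0.98), IFIT3 5.15-fold higher (2.36, SE 0.68) and IFIT5 2.94-fold higher (1.56, SE 0.48). By edgeR 0 of the 3 were called (adjusted p 0.85 for each), beside 0.0134% of genes called higher and 0% called lower. All 3 had an unadjusted edgeR p under 0.05, as did 582 of all genes, with 0.0018 for IFIT2, 0.0040 for IFIT3 and 0.0063 for IFIT5. With limma voom 0 of them were called, and 2 had an unadjusted p under 0.05. DESeq2 gave no p for IFIT2 and IFIT3 and did not call IFIT5 (unadjusted p 0.015, adjusted p 0.87). Without DPPA3 mRNA replicate 2 the log2 fold changes were 1.48, 0.75 and 0.61 for IFIT2, IFIT3 and IFIT5. With no filter all 3 were called (adjusted p 3.3e-13, 2.5e-05 and 3.0e-06). The values above are from the fit without pairing. With a block for the replicate number in edgeR, which pairs these groups, 7 genes were called in all against 2 without it, and 0 of the IFIT genes (adjusted p 0.52 for IFIT2 and IFIT3 and 0.39 for IFIT5). In the block fit the log2 fold changes were 3.32, 2.02 and 1.43 for IFIT2, IFIT3 and IFIT5, with unadjusted edgeR p of 0.0045, 0.0039 and 8.0e-04.

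**Figure D2:**
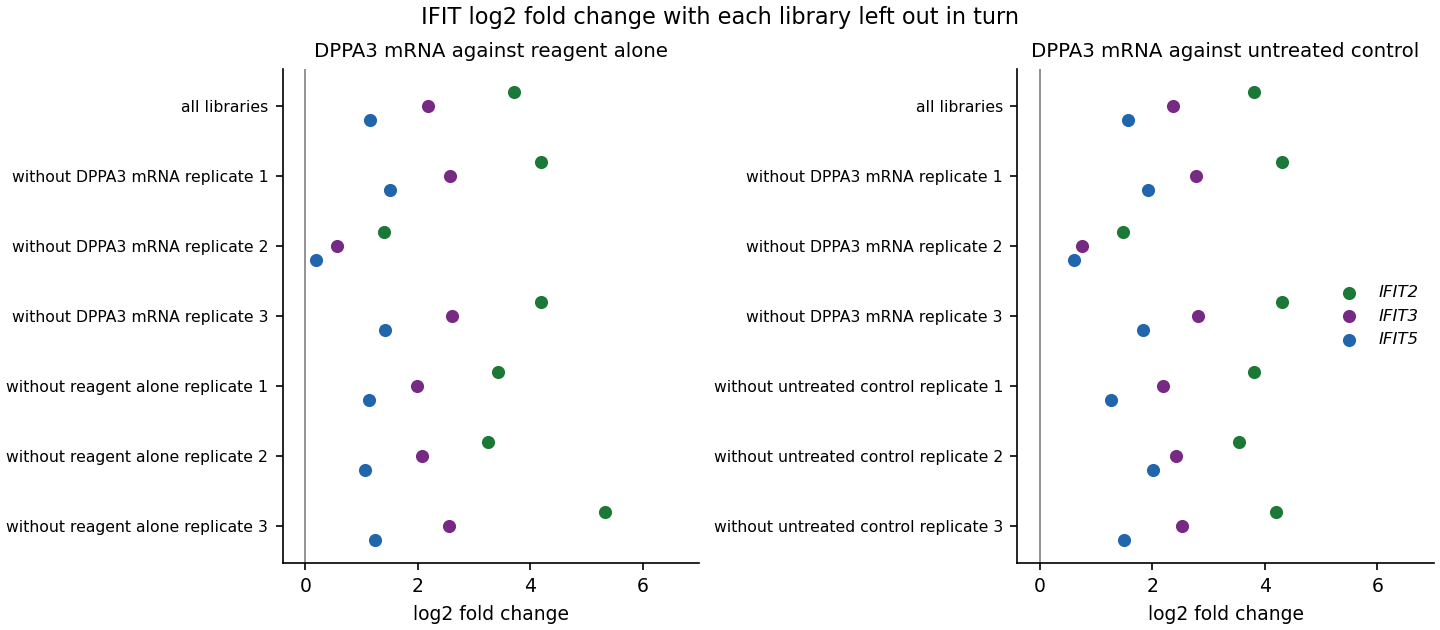
Log2 fold change (horizontal axis) of IFIT2, IFIT3 and IFIT5 with all libraries and with each library left out in turn, for DPPA3 mRNA against reagent alone (left) and against untreated control (right). All points lie above 0, and those without DPPA3 mRNA replicate 2 lie lowest (1.41, 0.57 and 0.19 on the left; 1.48, 0.75 and 0.61 on the right).

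Reagent alone against untreated control gave the background of the transfection reagent. The log2 fold change was 0.11 (SE 0.99) for IFIT2, 0.19 (SE 0.70) for IFIT3 and 0.41 (SE 0.48) for IFIT5, and the groups overlapped for each gene. By edgeR 0 of the 3 were called (adjusted p 0.97, 0.91 and 0.70), beside 0% of genes called higher and 0% lower. With edgeR or limma voom 0 of the 3 had an unadjusted p under 0.05. The same held for IFIT5 with DESeq2, which gave no p for IFIT2 and IFIT3. Among all 14874 genes tested, 1516 had an unadjusted p under 0.05 by edgeR, 1766 by DESeq2 and 3900 by limma voom. The 95% intervals reached from -2.02 to 2.24 for IFIT2, from -1.33 to 1.71 for IFIT3 and from -0.62 to 1.44 for IFIT5, so these libraries are compatible with differences within these bounds. The sign for IFIT2 and IFIT3 depended on reagent alone replicate 3, without which their log2 fold changes were -1.51 and -0.19. That of IFIT2 also turned without untreated control replicate 2 (-0.16).

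The ratio of one IFIT gene to another was taken within each library. CPM is not corrected for gene length, so a single ratio does not give relative abundance. Length cancels only when the same ratio is compared between libraries. The log2 ratio of IFIT2 to IFIT5 was -1.64, -0.10 and -2.02 in DPPA3 mRNA replicates 1, 2 and 3, -4.14, -4.22 and -2.12 in reagent alone replicates 1, 2 and 3, and -1.76, -3.92 and -2.04 in untreated control replicates 1, 2 and 3. The transfected libraries stood above all reagent alone libraries but overlapped with the untreated ones. Group means were -1.26 ± 1.02 with DPPA3 mRNA, -3.50 ± 1.19 with reagent alone and -2.57 ± 1.17 in untreated cells (SD, n = 3). The ratio of IFIT2 to IFIT3 had means of 1.43 ± 0.54, -0.11 ± 0.94 and 0.37 ± 0.63 (log2) in these groups, with every transfected library above all 6 others. The margin was narrow: DPPA3 mRNA replicate 1 stood at 0.99 and reagent alone replicate 3 at 0.90. Those ratios rest on 162 and 78 counts and on 127 and 65 counts of IFIT2 and IFIT3, and counting error was not set against the margin. The ratio of IFIT3 to IFIT5 overlapped between groups, at means of -2.68 ± 0.58 with DPPA3 mRNA, -3.38 ± 0.42 with reagent alone and -2.94 ± 0.54 in untreated cells. These ratios were described and not tested.

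**Figure D3:**
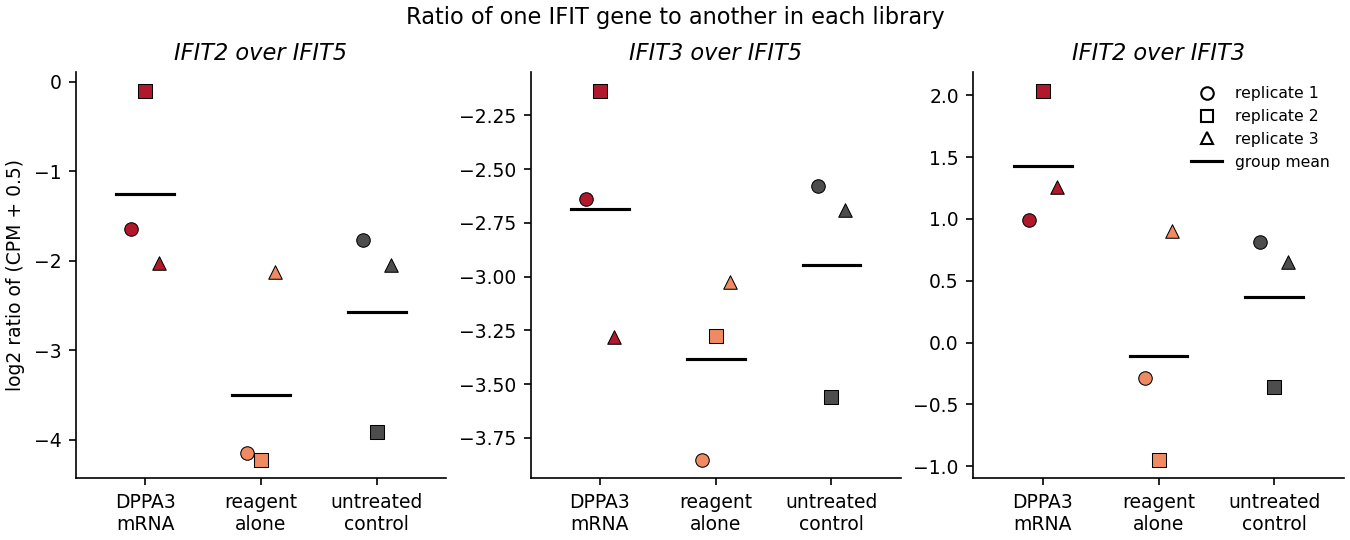
Log2 ratio of (CPM + 0.5) of one IFIT gene to another in each of 9 libraries, by group; symbols mark the replicate number and black lines are group means (n = 3). The IFIT2 to IFIT3 ratio of the transfected libraries lies between 0.99 and 2.04, above the 6 other libraries, of which reagent alone replicate 3 comes close at 0.90. The IFIT3 to IFIT5 ratio overlaps between groups.

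The interferon pathway around these genes was read by role from lists chosen with earlier results of these data known. The log2 fold changes that follow are for DPPA3 mRNA over reagent alone, unless another reference is named. Over all 14874 genes tested their median was 0.0027 and 7503 were positive. By edgeR 0 genes of any list were called against reagent alone. Interferon transcripts, the ligands, were scarce: IFNB1, IFNL3, IFNG and the 4 interferon alpha genes listed by symbol had 0 counts in all 9 libraries, which allows up to 0.75 CPM in the shallowest. IFNE, an epithelial interferon, measured 2.07 ± 0.44 CPM after transfection, 1.63 ± 0.33 CPM after reagent alone and 1.35 ± 0.77 CPM without treatment. IFNT3, named as an interferon tau gene, measured 0.83 ± 0.47, 1.11 ± 0.99 and 1.45 ± 1.25 CPM in the same groups (SD, n = 3), and near-identical gene copies may share its reads. Both were the 2 ligands of 12 listed that could be tested, with log2 fold changes of 0.36 and -0.23, so the data say little about interferon transcripts.

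Of 9 receptors and kinases 3 were positive, and their median was -0.096. The receptor chains IFNAR1 and IFNAR2 had values of -0.23 (SE 0.27) and -0.38 (SE 0.24), and the kinase TYK2 0.10 (SE 0.17). The 10 transcription factors had a median of 0.37, and 4 of them had all transfected libraries above all reagent alone libraries, as 4.91% of all genes did. IRF9, a DNA-binding factor of interferon signalling, measured 67.7 ± 33.9 CPM after transfection, 29.8 ± 7.07 CPM after reagent alone and 31.9 ± 6.66 CPM without treatment (log2 fold change 1.17, SE 0.32). IRF7, which amplifies interferon gene induction, had a log2 fold change of 1.15 (SE 0.42), IRF1 0.82 (SE 0.26) and STAT2, the partner of IRF9, 0.38 (SE 0.17). Over untreated control the median of the 10 transcription factors was 0.30, and IRF7 had 0.54 (SE 0.41).

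RNA sensors had a median of 0.87 over 11 genes, and 8 of them were positive. All transfected libraries lay above all reagent alone libraries for 4 of the 11, as for 4.91% of all genes. Over untreated control the median of the 11 was 1.18, and 2 lay so apart, as did 4.24% of all genes. DHX58, a helicase of the RIG-I family, measured 11.7, 60.4 and 22.8 CPM in transfected replicates 1, 2 and 3. It averaged 6.13 ± 1.76 CPM after reagent alone and 10.3 ± 5.29 CPM without treatment (SD, n = 3). The highest untreated library, at 15.9 CPM, lay above transfected replicate 1, and the log2 fold change over untreated control was 1.63 (SE 0.52). IFIH1 and DDX58, the helicases that sense long double-stranded RNA and triphosphate RNA, had log2 fold changes of 2.19 (SE 0.66) and 2.07 (SE 0.61), close in size to IFIT3. For both genes the transfected libraries overlapped with reagent alone. ZBP1, a sensor of Z-form nucleic acid, had 4.43 (SE 0.98). Among 7 negative regulators, with a median of 0.13, USP18 and ISG15, which in human cells together restrain interferon receptor signalling, had 3.02 (SE 0.78) and 4.74 (SE 1.04), while SOCS1 and SOCS3 had 0.13 and 0.0023. ISG15 stood at only 1.33 ± 1.85 CPM after reagent alone (SD, n = 3), with 0.25 CPM in the lowest library, so its fold is poorly bounded. It also stands in the effector list, as IFIH1 does.

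Enzymes that methylate the RNA cap were included because human IFIT1 discriminates RNA by its cap. Of 6 symbols 4 were tested, with a median of 0.28. CMTR1, which methylates the ribose of the first transcribed base, measured 89.0 ± 22.0 CPM after transfection, 61.6 ± 7.28 CPM after reagent alone and 71.3 ± 6.67 CPM without treatment (SD, n = 3; log2 fold change 0.53, SE 0.19). CMTR2 had 0.93 (SE 0.51), and the cap guanine methyltransferase RNMT and the capping enzyme RNGTT 0.035 (SE 0.23) and 0.012 (SE 0.21).

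The 20 other antiviral effectors tested, of 26 listed, had a median of 3.17. All 20 were positive, 18 had an unadjusted p under 0.05 and 11 had all transfected libraries above all reagent alone libraries, against the 4.91% of all genes. The 3 IFIT genes had a median of 2.17, with 1 of 3 so separated. RSAD2 (viperin) had a log2 fold change of 6.84 (SE 1.35), OAS1X, of the family that makes the RNase L activator, 5.70 (SE 1.13), IFI6 4.47 (SE 0.88) and IFITM1 2.19 (SE 0.37). RSAD2 and OAS1X stood at 0.55 and 0.62 CPM after reagent alone, near the limit of 3 counts, so their folds are poorly bounded, and reads of OAS1X and IFITM1 may be shared with close copies. Without treatment OAS1X stood at 2.84 CPM. Its log2 fold change over untreated control was 3.56 (SE 0.94), with overlapping libraries. Against untreated control the same 20 effectors had a median of 3.56, unchanged with MX2, at 0 counts in every untreated library, set to its bound, and 1 was called higher, IFITM1 (log2 fold change 2.77, edgeR adjusted p 0.037). That call was lost without DPPA3 mRNA replicates 2 or 3, reagent alone replicate 1 or any 1 untreated library (adjusted p 0.076 to 0.26), and with only the 2 groups compared (0.085). For reagent alone over untreated control their median was 0.48, and edgeR called 0 of the 20. Of the 20, 0 had an unadjusted edgeR p under 0.05, where 1516 of all 14874 genes tested did. Over reagent alone and without DPPA3 mRNA replicate 2 the list medians were 1.46 for effectors, 0.35 for RNA sensors, 0.23 for transcription factors, -0.040 for negative regulators, -0.026 for cap enzymes, -0.18 for receptors and kinases, and 0.26 for the 2 ligands, and 0 genes of any list were called.

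**Figure D4:**
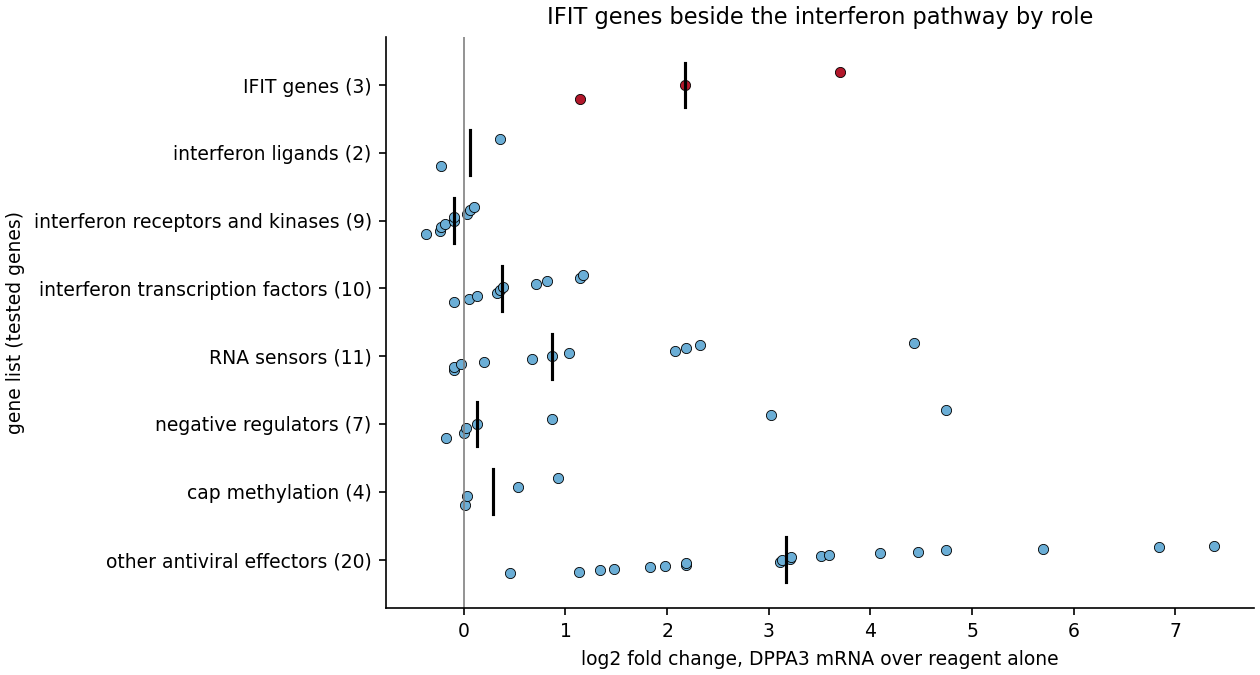
Log2 fold change of DPPA3 mRNA over reagent alone for each tested gene of the IFIT family and of 7 lists by role in the interferon pathway; each point is a gene, the black bar is the list median and the number of genes tested is in brackets. The IFIT genes (median 2.17) lie between the RNA sensors (0.87) and the other effectors (3.17), while receptors and kinases lie around 0.

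The pattern over libraries was compared with that of every other gene by the root mean square difference between centred log2 CPM profiles over the 9 libraries, the profile of the family being the mean of its 3 members. The members themselves lay 0.76 (IFIT2), 0.21 (IFIT3) and 0.63 (IFIT5) from that mean. Of 14152 genes ranked, the 10 nearest were USP18 (0.28), IFIH1 (0.34), DDX58 (0.44), PARP14 (0.44), SAMD9 (0.48), UBA7 (0.50), LOC509283 (0.50), DTX3L (0.53), PARP9 (0.53) and ZNFX1 (0.55), against a median of 1.27 over all genes and 1.24 for a flat profile. PARP14 and PARP9 are ADP-ribosyltransferases, DTX3L is the ubiquitin ligase partner of PARP9, SAMD9 is an antiviral factor and ZNFX1 a helicase that binds viral RNA, and 6 of the 10 also stand in the lists above. USP18 measured 6.33, 71.1 and 8.22 CPM in transfected replicates 1, 2 and 3, and 1.74, 2.69 and 5.43 CPM after reagent alone. Like the IFIT genes it was highest in DPPA3 mRNA replicate 2, nearly level in replicates 1 and 3, and highest among reagent alone libraries in replicate 3. UBA7, the activating enzyme of ISG15 conjugation, differed in replicate 3, at 12.7, 158 and 40.9 CPM in transfected replicates 1, 2 and 3. The likeness rests mainly on DPPA3 mRNA replicate 2: without it, 1 of the 10 genes, USP18, was still among the 10 nearest.

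In RefSeq's gene table (assembly ARS-UCD2.0), IFIT2, IFIT3 and IFIT5 lie in a row, with 1 further protein-coding gene, LOC100139670, between IFIT3 and IFIT5. It is described by its ID only. IFIT genes form a multigene family, and how reads shared between copies were counted was not stated. It measured 8.21, 230 and 28.9 CPM in transfected replicates 1, 2 and 3, 12.7, 9.06 and 11.0 CPM in reagent alone replicates 1, 2 and 3, and 4.18, 7.46 and 3.61 CPM in untreated control replicates 1, 2 and 3. DPPA3 mRNA replicate 1 thus lay below all reagent alone libraries, unlike for IFIT2 and IFIT3, and replicate 3 lay 3.52-fold above replicate 1. It was not called against reagent alone (log2 fold change 3.04, SE 0.85; edgeR adjusted p 0.9998) or untreated control (4.12, SE 0.90; edgeR adjusted p 0.45), and its likeness to the family ranked 44.

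The tested genes on either side had log2 fold changes over reagent alone of -0.56 to 0.21, and 0 of them were called by edgeR. LIPA, a lysosomal lipase, measured 22.2 ± 4.37 CPM after transfection, 22.2 ± 4.53 CPM after reagent alone and 16.6 ± 4.38 CPM without treatment (SD, n = 3), with a log2 fold change over reagent alone of -0.0082 (SE 0.25). Its annotated span overlaps those of IFIT2, IFIT3, LOC100139670 and IFIT5. Whether counting used strand, and how it treated reads in overlapping genes, was not stated in the sources used here, and how far reads were shared or dropped was not tested. FAS, a death receptor, had a log2 fold change over reagent alone of -0.060 (SE 0.41), SLC16A12, a transporter, -0.56 (SE 0.42), PANK1, a coenzyme A synthesis kinase, 0.21 (SE 0.29) and KIF20B, a kinesin, 0.036 (SE 0.39). CH25H, which makes an antiviral oxysterol, did not pass the filter: its counts were 0, 8 and 7 over transfected replicates 1, 2 and 3, and 0 in each of the other 6 libraries.

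**Figure D5:**
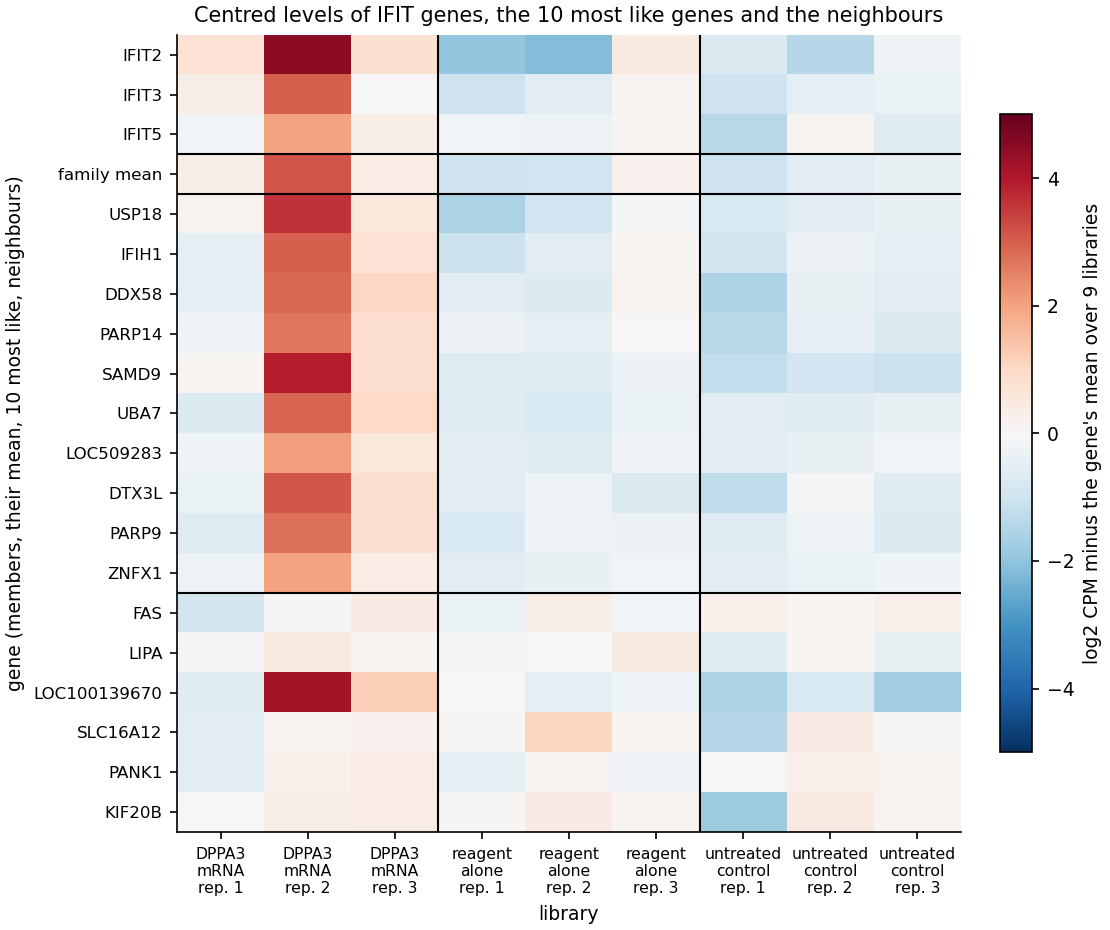
Log2 CPM of each gene minus its mean over the 9 libraries (colour), for the 3 IFIT genes, their mean, the 10 genes most like that mean and the tested neighbours in RefSeq order; columns are libraries. DPPA3 mRNA replicate 2 is darkest red for the IFIT genes, the 10 most like genes and LOC100139670, and the other neighbours show no such column.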

How the data were processed

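The authors deposited raw read counts per gene symbol for the 9 libraries. Per the labels, TRIzol was used for RNA extraction, DNase treatment followed, and the library kit was IDT xGen RNA. Trimmomatic, HISAT2, HTSeq and edgeR were listed, per the submitters' processing notes. Their versions and roles, the build and the annotation were not given in the sources used here. For that reason coordinates are left out. Of 30641 symbols, 24552 matched the RefSeq table of ARS-UCD2.0, used for gene order only.

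Counts were tested as deposited. After filterByExpr (14874 genes) and TMM scaling, all 9 libraries were fitted with group as the only term by edgeR 4.0.16 in R 4.3.3 (glmQLFit, glmQLFTest), with Benjamini-Hochberg adjustment over all genes and calls under 0.05. SEs are the log2 fold change over the square root of F. Ratios used CPM + 0.5, and likeness log2 CPM with a prior count of 2 among genes with a mean of at least 1 CPM. A count of 0 was read against 3 counts. Poisson intervals cover counting error only; those of fold changes use the degrees of freedom of the fit.

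The members and lists were chosen with earlier results of these data known. Named were DPPA3, the members, up to 4 genes of each list with the smallest p against reagent alone, the 10 most like genes and the 3 nearest protein-coding neighbours on each side; SOCS1, SOCS3, MX2, ligands at 0 and cell type markers were named beside them. Replicates of a group differed beyond sampling noise (the lowest chi-square was 13.4 per degree of freedom). Untreated control replicate 1 stood furthest apart, at 63.0 from replicate 2 and 49.5 from replicate 3, which differed from each other by 13.8. Its TMM factor was 0.856. Without it the log2 fold change of IFIT5 over untreated control was 1.27 for DPPA3 mRNA and 0.13 for reagent alone. Deviations of equal replicate numbers correlated at 0.34, 0.32 and 0.12 between DPPA3 mRNA and untreated control, all over 0.1, so these numbers were taken as paired, from the data and not the labels. Alternatives were DESeq2 size factors, no filter, DESeq2 1.42.0, limma 3.58.1 voom with quality weights, only the 2 groups compared, the replicate number as a block, library sizes without DPPA3, and each library left out in turn. The scripts were tested on simulated data.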

Additional observations from a re-analysis of the deposited data

How the results depend on the processing

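The 9 log2 fold changes of the IFIT genes kept their sign and stayed uncalled under every alternative that gave a p, except as follows. With no filter the 3 genes were called against reagent alone (log2 fold changes 3.70, 2.17 and 1.15) and against untreated control (3.83, 2.38 and 1.57), so the number of IFIT genes called was 3 in both. For reagent alone against untreated control the sign of IFIT2 turned with limma voom (-0.71) and the replicate block (-0.018), and when single libraries were left out it ranged from -1.51 to 0.56, and that of IFIT3 from -0.19 to 0.38. The cause was not tested.

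For DPPA3 mRNA against reagent alone, DPPA3 mRNA against untreated control and reagent alone against untreated control, all genes called numbered 1, 2 and 0; without the filter they were 66, 69 and 18, by DESeq2 9, 10 and 2, with the replicate block 2, 7 and 0, and with limma voom 1, 4 and 2. These counts ranged over 1 to 20, 1 to 26 and 0 to 1 when a library was omitted. The block changed no call of an IFIT gene. Against reagent alone, and for reagent alone against untreated control, equal replicate numbers correlated at 0.14, 0.12 and 0.086, and at 0.15, 0.14 and 0.093, so the block stayed an alternative there. DESeq2 gave no p for IFIT2 and IFIT3. Other pseudocounts moved no ratio by more than its SD. Medians of the lists without DPPA3 mRNA replicate 2 were computed after seeing the data. The shallow reagent alone replicate 1 limits what can be said of low IFIT2 and IFIT3 levels.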
